A study of Mus musculus with 2 samples.

Results

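Classical monocytes, the *Ly6c2*-high cells of the tumor immune infiltrate, numbered 319 of the 5022 tumor-infiltrating immune cells (TIIs) in the scRNAseq table. They were selected on measured values, as cells with at least 5 *Ly6c2* UMIs (unique molecular identifiers, each standing for 1 captured transcript) and at least 2 UMIs of *Csf1r*, *Cd14* and *Ms4a6c* together. Cells with 50 or more of every 10000 UMIs from the MHC class II genes *H2-Aa* and *H2-Ab1*, 10 or more UMIs of the complement C1q genes, more than 2 CD3 UMIs, or 3 or more UMIs of *Cd209a* or *Siglech* were left out. The cells came from B16-OVA melanoma, a mouse tumor line carrying ovalbumin, and were sorted on day 14 as DAPI-negative CD45.2+ cells. The tumors were carried by female *Maoa* WT or *Maoa* KO mice of the C57BL/6J background, 8 to 12 weeks old. The KO line came from another strain and had been backcrossed to C57BL/6J. *Maoa* encodes monoamine oxidase A, which breaks down serotonin and other monoamines, and the KO mice carried a hypomorphic *Maoa* mutation in all their cells, the monocytes among them. Cells of 10 tumors per genotype were pooled into 1 library each, with 10000 cells loaded, so that no spread between mice could be measured. All differences between genotypes below are therefore differences between 2 libraries, given with 95% intervals that cover the counting error of UMIs only and with no p-value.

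Classical monocytes leave the bone marrow through the chemokine receptor CCR2, enter inflamed tissue and tumors, and there can become macrophages or monocyte-derived dendritic cells. In tumors they are a main source of tumor-associated macrophages (TAMs). In blood they can also lose Ly6C and turn into nonclassical monocytes that patrol the vessel wall, a step that depends on the nuclear receptor *Nr4a1*.

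The name of the population was checked against 5 marker genes. *Ly6c2*, the Ly6C antigen gene on chromosome 15 (GRCm38, 75108158 to 75111970), was used for the selection, and its level of 1778 and 1981 CPM (UMIs scaled to a total of 1000000) in the libraries labelled WT and KO is only a description. *Ly6c2* is no mark of monocytes by itself, since 59.6% and 56.2% of T cells also held a *Ly6c2* UMI once every cell was thinned to 6200 UMIs. Reads of *Ly6c2* could in part not be told from its neighbor *Ly6c1*, because 90 of the 451 stretches of 50 bases in the last 500 bases of *Ly6c2* occur in *Ly6c1*, but *Ly6c1* itself was listed with only 6 and 8 UMIs. *Hp*, which encodes the hemoglobin scavenger haptoglobin and was not part of the rule, stood at 888 and 704 CPM, against 35.8 and 26.1 CPM in C1q-high cells, which had 10 or more C1q UMIs. *Ifitm6*, an interferon-induced transmembrane protein of myeloid cells, stood at 685 and 736 CPM, against 49.2 and 40.4 CPM there. Of the thinned members, 81.1% and 78.8% held an *Hp* UMI and 82% and 87.7% an *Ifitm6* UMI, while in thinned T cells the shares were 2.95% and 0.385% for *Hp* and 0.454% and 2.69% for *Ifitm6*. All 5 markers were thus present in the members, and the cells also carried *Ccr2* at 562 and 615 CPM.

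The markers did not separate the members from every other monocyte. Patrolling monocyte-like cells, with at most 2 *Ly6c2* UMIs and at least 2 UMIs of *Ace*, *Treml4*, *Adgre4* and *Spn* together, carried *Hp* at 634 and 735 CPM, *Ifitm6* at 589 and 970 CPM and *Serpinb10* at 128 and 257 CPM. Cells just inside and just outside the *Ly6c2* limit carried all 4 other markers. The 28 members with 5 *Ly6c2* UMIs held *Hp* at 439 CPM, *Chil3* at 1297 CPM, *Ifitm6* at 639 CPM and *Serpinb10* at 168 CPM, and the 37 cells with 4 *Ly6c2* UMIs that met all other limits held them at 453, 923, 584 and 115 CPM.

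**Figure D1:**
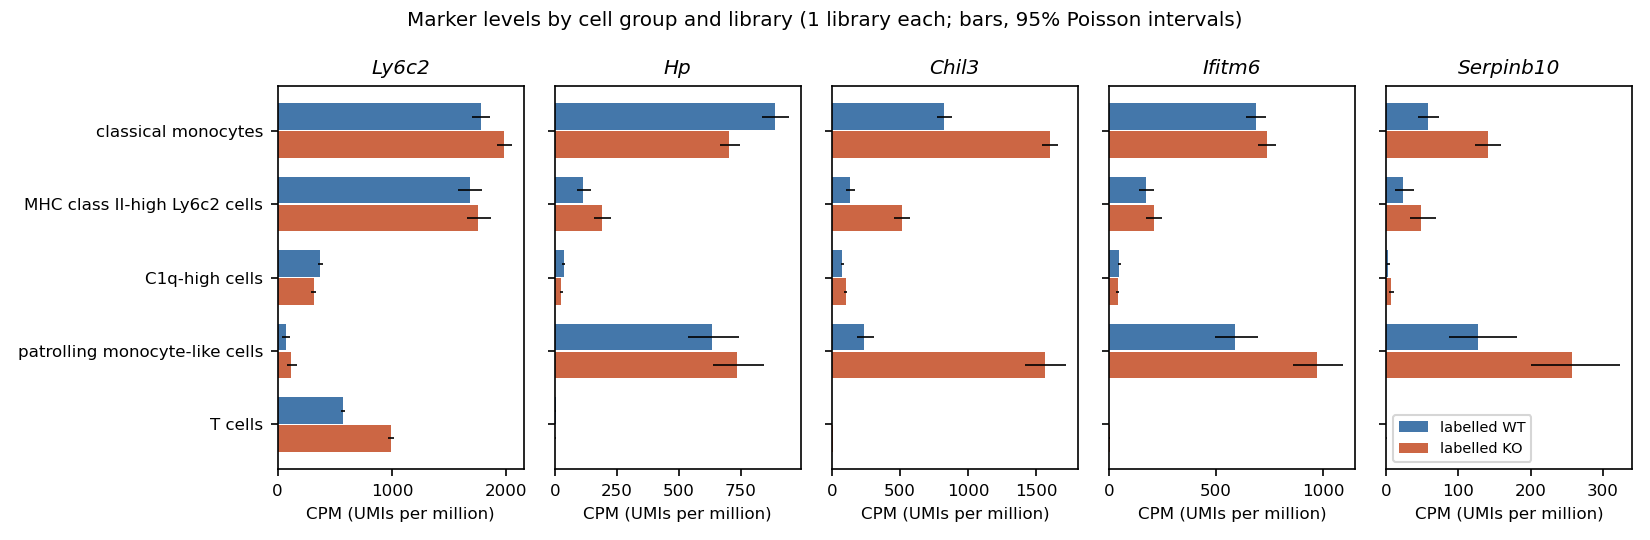
Level of the 5 marker genes, in CPM, in classical monocytes, other monocyte and macrophage groups and T cells of the library labelled WT (blue) and the library labelled KO (red). Error lines are exact Poisson 95% intervals. *Hp*, *Chil3*, *Ifitm6* and *Serpinb10* were high in classical and patrolling monocyte-like cells and near 0 in T cells, and *Chil3* was 825 against 1599 CPM in classical monocytes.

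The members made up 121 of 2392 cells (5.06%, exact binomial 95% interval 4.21 to 6.01) of the library labelled WT and 198 of 2630 cells (7.53%, 6.55 to 8.60) of the library labelled KO. The members' median UMI count was 9129 in the library labelled WT and 8198.5 in the library labelled KO, with 1.41% and 1.48% mitochondrial UMIs. Over all cells the medians lay further apart, at 9887.5 and 6945.5 UMIs. The share of members was higher in the library labelled KO under every other setting of the rule tried, but with at least 10 *Ly6c2* UMIs, or without members holding nonclassical monocyte genes, the intervals of the libraries overlapped. *Maoa* itself had 0 UMIs in the members of the library labelled WT and 3 in those of the library labelled KO, and a 3′ count outside the mutated stretch would not see the mutation, so the genotype labels could not be checked. In addition, 13 cell barcodes occurred in both libraries, none of them belonging to a member.

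The 2 libraries were then compared over the 3123 genes with at least 100 UMIs in the members of both together. At least 1.5-fold higher in the library labelled KO were 161 genes (5.16%), and 232 genes (7.43%) were at least 1.5-fold lower. Of these, 118 and 191 had Poisson intervals that did not overlap. At 2-fold the counts were 24 and 83. The median log2 ratio of all 3123 genes was 0.01. Genes that reached 100 UMIs are called measured below, and past 1.5-fold is meant by higher or lower unless a value is given beside it.

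The chemokine gene *Cxcl3* had the largest ratio among the genes that were lower in the library labelled KO. This neutrophil attractant had 334 UMIs in the WT-labelled members and 3 in the KO-labelled members (288 against 1.77 CPM, log2 ratio -7.13, -9.63 to -5.79). *Ccl7* and *Ccl12*, ligands of CCR2 that are both encoded on chromosome 11, stood at 1561 against 179 CPM (log2 ratio -3.12, -3.30 to -2.95) and 272 against 23.6 CPM (log2 ratio -3.51). *Saa3*, an acute-phase serum amyloid A, stood at 351 against 33 CPM (log2 ratio -3.40). Of these 4 genes *Ccl7* kept the most UMIs in the library labelled KO, at 304. *Hmox1*, the heme oxygenase that degrades heme, stood at 1250 against 276 CPM (log2 ratio -2.18, -2.33 to -2.03). Its log2 ratio was -0.67 when all cells were thinned to 3700 UMIs before the rule was applied. *Hebp1*, a heme-binding protein, stood at 192 against 5.90 CPM (log2 ratio -4.95, -6.10 to -4.12). *Lcn2* and *Lrg1*, secreted proteins of granulocytes and the acute phase, had 144 against 8 and 121 against 10 UMIs. *Lcn2* is best known for binding the iron carriers of bacteria. The alarmin gene *S100a8* stood at 357 against 24.8 CPM (log2 ratio -3.83, -4.34 to -3.39), and *Rsad2*, which encodes the antiviral protein viperin, at 311 against 48.4 CPM (log2 ratio -2.68, -3.05 to -2.33). The sorting nexin gene *Snx20* at 144 against 24.2 CPM and *AA467197* at 184 against 30.1 CPM completed the 12 genes with the largest log2 ratios in this direction.

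Genes higher in the library labelled KO differed by less. *Eps8*, an actin-capping and signaling adaptor, had the largest ratio, with 28 and 281 UMIs (24.2 against 166 CPM, log2 ratio 2.76, 2.22 to 3.39). *Apobec3*, a cytidine deaminase that restricts retroviruses, stood at 15.5 against 101 CPM (log2 ratio 2.66, 2.0 to 3.49). *Apoe*, the lipid carrier apolipoprotein E, was the most abundant of the 12, at 264 against 987 CPM (log2 ratio 1.90, 1.73 to 2.08), and 42.3% and 71.5% of thinned members held an *Apoe* UMI. *Cx3cr1*, the fractalkine receptor that marks nonclassical monocytes, stood at 19.8 against 61.4 CPM (log2 ratio 1.60, 0.97 to 2.35), and *Nr4a1*, the nuclear receptor those cells depend on, at 38 against 100 CPM (log2 ratio 1.39, 0.92 to 1.91). *Serpinb10*, a gene of a protease inhibitor family and 1 of the 5 markers, stood at 57.8 against 140 CPM (log2 ratio 1.27, 0.88 to 1.69). GENCODE M21 types it as a polymorphic pseudogene. The others were *Bri3bp*, *Lamtor3*, *Ccm2*, *Rnase6*, *Cbfa2t3* and the sterol synthesis gene *Cyp51*, with log2 ratios from 1.22 to 1.52. *Chil3*, the chitinase-like marker, was outside these 12 but also higher, at 825 against 1599 CPM (log2 ratio 0.95, 0.85 to 1.06), while the markers *Hp* (log2 ratio -0.34, -0.46 to -0.21) and *Ifitm6* (log2 ratio 0.10, -0.03 to 0.23) stayed within 1.5-fold.

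**Figure D2:**
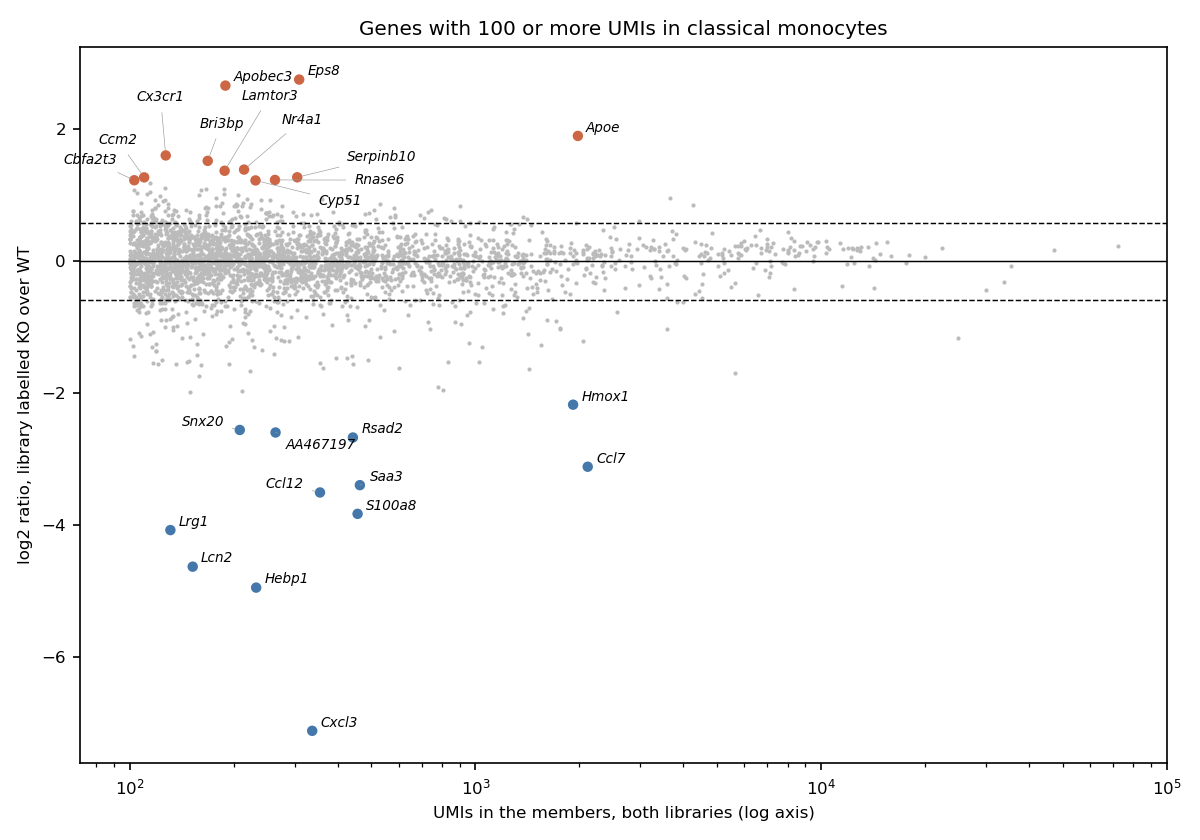
Each point is 1 of 3123 genes that reached 100 UMIs in the members, with its UMIs in both libraries on a log axis and its log2 ratio of the library labelled KO over the library labelled WT. Dashed lines mark 1.5-fold, and the 12 genes named in each direction reach -7.13 (*Cxcl3*) at the low end and 2.76 (*Eps8*) at the high end.

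Several of these genes differed in the same direction in cells other than monocytes of the same libraries. *S100a8* had a log2 ratio of -4.59 in T cells and 21 and 0 UMIs in NK cells of the libraries labelled WT and KO. In T cells *Lcn2* had 14 and 0 UMIs and *Lrg1* 7 and 0. *Snx20* (-2.52) and, in the other direction, *Apobec3* (2.49) had T cell log2 ratios near those of the members. In the direction of *Apobec3*, *Rnase6* had a T cell ratio of 1.83 against 1.23 in the members, *Cbfa2t3* 1.98 against 1.23 and the monocyte marker *Chil3* 1.63 against 0.95. *Rnase6* and *Cbfa2t3* were at 0.09 and 0.42 in C1q-high cells, with intervals that included 0. For none of these 8 genes can a difference of the monocytes be told apart from a difference of the whole library. *Hebp1* had a T cell ratio of -1.19. The T cell ratios of *Ccl12* (-0.18), *Rsad2* (-0.35), *Cxcl3* (-0.92), *Saa3* (-0.68), *Hmox1* (-0.75) and *Ccl7* (-1.01) were closer to 0 than those of the members, although the intervals for *Cxcl3*, *Hmox1* and *Ccl7* left out 0 in the same direction, as did that of *AA467197* (-0.82). Within the myeloid groups *Hebp1* had 47 and 2 UMIs in MHC class II-high *Ly6c2* cells of the libraries labelled WT and KO, 46 and 2 in patrolling monocyte-like cells and a log2 ratio of -0.90 in C1q-high cells. *Rsad2* was lower in the library labelled KO in those groups (log2 ratio -2.52, -3.54 and -0.75). The log2 ratio of *Ccl7* was 0.43 in MHC class II-high *Ly6c2* cells, the opposite direction to the members, and -0.43 in C1q-high cells, and that of *Ccl12* was -0.01 in C1q-high cells. *Apoe* was higher in the library labelled KO in MHC class II-high *Ly6c2* cells (1.55), C1q-high cells (0.97) and patrolling monocyte-like cells (1.49). *Eps8* was higher in the library labelled KO in C1q-high cells (log2 ratio 1.68) and MHC class II-high *Ly6c2* cells (2.71), and had 0 and 22 UMIs in patrolling monocyte-like cells. *Chil3* was likewise higher there in patrolling monocyte-like cells (2.70) and MHC class II-high *Ly6c2* cells (1.93).

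Few cells carried most of the genes that were high in the library labelled WT. The 10 members with the most UMIs, of 121, held 97.5% of the *Saa3* UMIs, 94.6% of *Cxcl3*, 85.4% of *Lcn2*, 83.5% of *Ccl12*, 81.4% of *Ccl7* and 73.2% of *Hmox1*. Over the 1559 genes that reached 100 UMIs in those members, the 10 highest cells held a median of 25.9% (5th to 95th percentile 16.6 to 47.1). *Hebp1* (27.9%) and *Snx20* (25.7%) were near that median, and they were seen in 62.2% against 3.35% and 61.3% against 13.4% of thinned members. The cells behind the other genes overlapped in part. *Ccl7* shared 7 of its 10 highest WT-labelled cells with the chemokine *Ccl2* and 6 with *Hmox1*, and *Lcn2* shared 5 with *S100a8* and 0 with *Ccl7*. Once the highest 5% of cells of each library were left out gene by gene, the log2 ratio was -3.90 for *Ccl7*, -1.79 for *Hmox1* and -3.04 for *Rsad2*. The 12 genes with the largest ratios in the other direction had 22.8% to 38.8% of their UMIs in the 10 highest of 198 cells, where the median over 2110 genes was 19.9% (10.6 to 32.8).

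Most surface receptors for exit from the marrow and entry into tissue were within 1.5-fold. Of 15 measured receptors 3 were at least 1.5-fold higher in the library labelled KO (5.16% of all genes) and 0 lower, with a median log2 ratio of 0.03. The higher ones were *Cx3cr1*, the integrin chain *Itgal* (47.5 against 87.3 CPM, log2 ratio 0.87, 0.42 to 1.35) and *Cd177* (69.9 against 113 CPM, log2 ratio 0.69, 0.31 to 1.09). *Ccr2* (log2 ratio 0.13, -0.01 to 0.27) stayed within 1.5-fold. Of 17 growth factor and cytokine receptors and their antagonists, *Ifngr1*, the ligand-binding chain of the interferon gamma receptor, was higher (216 against 385 CPM, log2 ratio 0.83, 0.62 to 1.05) and *Il1rn*, the secreted antagonist of the interleukin 1 receptor, was lower (510 against 215 CPM, log2 ratio -1.25, -1.44 to -1.06), against 5.16% and 7.43% of all genes. *Csf1r*, used by the selection rule, stood at 285 against 375 CPM, and the GM-CSF receptor chain *Csf2ra* at 328 against 363 CPM.

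Granule and secreted proteins of young monocytes went both ways. Of 15 measured genes, 2 (*Chil3* and *Serpinb10*) were higher in the library labelled KO and 6 were lower, against 5.16% and 7.43% of all genes, with a median log2 ratio of -0.44. That median was -0.22 when all cells were thinned before the rule, -0.23 with no MHC class II limit and -0.01 without members holding a T, NK or B cell marker UMI. The lower ones included the matrix protein *Thbs1* (567 against 229 CPM, log2 ratio -1.31, -1.49 to -1.13) and the clotting factor gene *F13a1* (561 against 326 CPM, log2 ratio -0.78, -0.95 to -0.62), besides *Vcan*, *Mmp8*, *Prtn3* and *Lcn2*. *Lyz2*, lysozyme M, was within 1.5-fold at 22845 against 26921 CPM, as was *Plac8* at 4815 against 5868 CPM. Per cell the whole list, in which *Lyz2* weighs most, summed to a median of 353 of every 10000 UMIs in the library labelled WT and 416 in the library labelled KO. The list's median gene and its summed level therefore had opposite directions. Of 12 S100 proteins and annexins only *S100a8* passed 1.5-fold (7.43% of all genes were lower), and *S100a6* (4231 against 4100 CPM) and *S100a4* (1845 against 1973 CPM) were nearly level.

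Receptors for microbial products were lower in part. Of 26 pattern recognition and Fc receptors 7 were at least 1.5-fold lower in the library labelled KO (7.43% of all genes) and 0 higher, with a median log2 ratio of -0.18. They included the C-type lectins *Clec4e*, which binds mycobacterial glycolipid and dead-cell products (447 against 230 CPM, log2 ratio -0.96, -1.15 to -0.77), *Clec4d* (log2 ratio -0.59, -0.79 to -0.40) and *Clec4n* (log2 ratio -0.68, -0.88 to -0.49), the scavenger receptor *Msr1* (log2 ratio -0.66, -0.87 to -0.45) and the amplifying receptor *Trem1* (log2 ratio -1.44, -2.07 to -0.84). *Fcgr4* was also among them. *Cd14*, the last of the 7, was used by the selection rule. The others of the 7 were each within 1.5-fold under at least 1 other setting. When all cells were thinned before the rule, the log2 ratio was -0.58 for *Clec4e*, -0.26 for *Clec4n* and -0.42 for *Msr1*. *Fcgr3* at 867 against 700 CPM was within 1.5-fold.

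**Figure D3:**
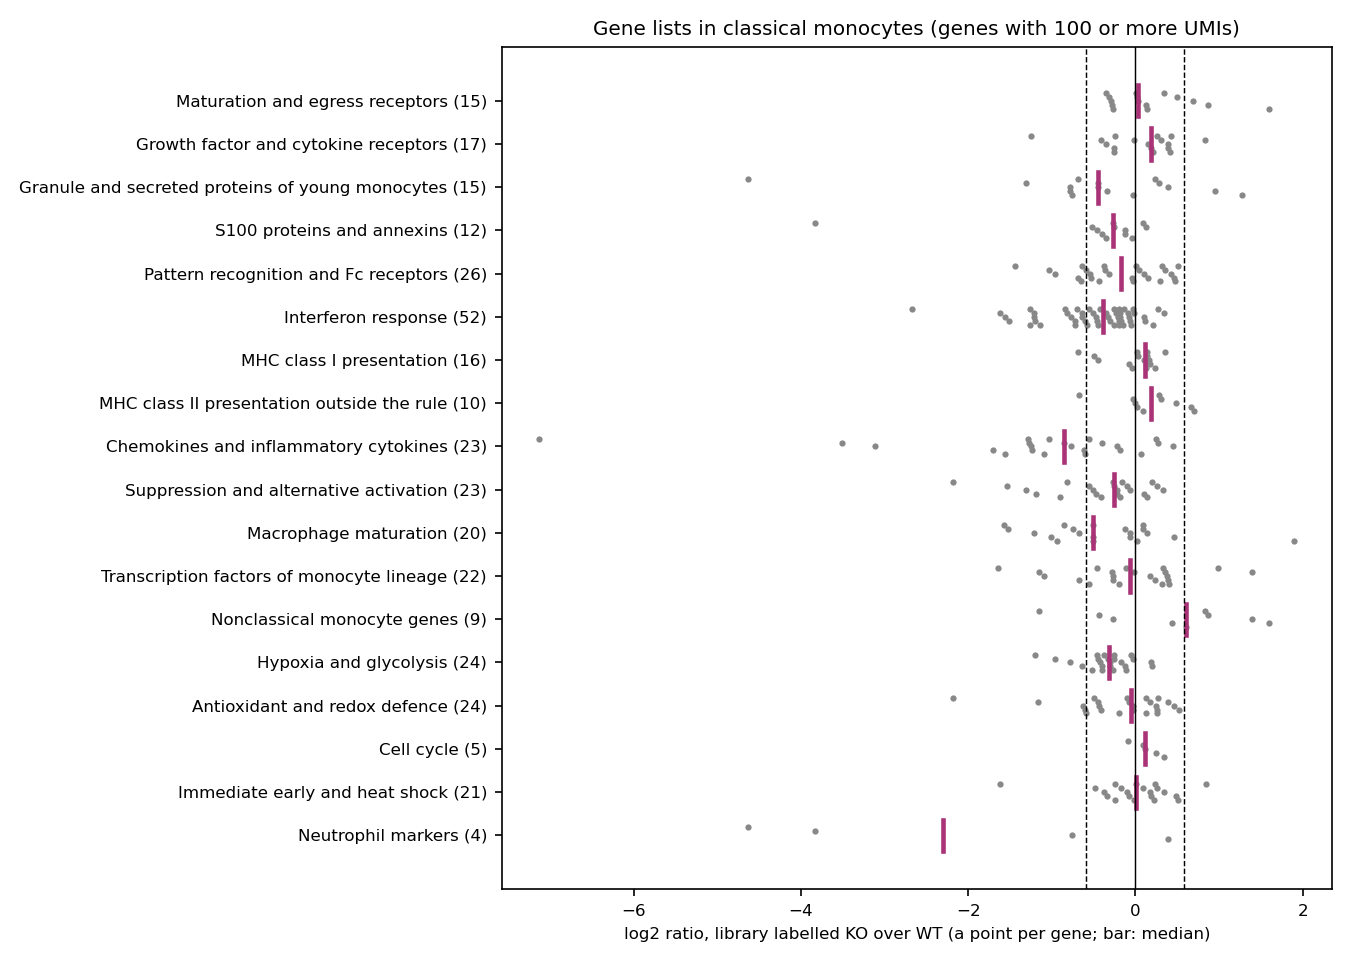
Log2 ratio of the library labelled KO over the library labelled WT for each gene with at least 100 UMIs in the members (points), by gene list, with the number of genes in brackets. The bar is the list's median, dashed lines mark 1.5-fold, and the chemokine list (-0.85) and the nonclassical monocyte list (0.60) lie on opposite sides of 0.

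Part of the interferon-response genes were lower in the library labelled KO. Of 52 measured genes 19 were at least 1.5-fold lower and 0 higher (7.43% of all genes were lower). The list's median log2 ratio was -0.39, against 0.01 over all genes. It was -0.80 over 21 genes without members holding a T, NK or B cell marker UMI. The list's median was 0.10 in T cells, -0.48 in NK cells, -0.50 in MHC class II-high *Ly6c2* cells, -0.55 in C1q-high cells and -0.56 in patrolling monocyte-like cells. *Isg15*, the ubiquitin-like interferon-stimulated protein, stood at 1085 against 469 CPM (log2 ratio -1.21, -1.34 to -1.08), although 71.2% and 64.8% of thinned members held a UMI. *Irf7*, the transcription factor that amplifies interferon production, stood at 449 against 263 CPM (log2 ratio -0.77, -0.96 to -0.59). The RNA-binding Ifit genes were lower as well, with *Ifit3* at 212 against 69 CPM (log2 ratio -1.62, -1.95 to -1.30) and *Ifit1* at 148 against 63.7 CPM (log2 ratio -1.22, -1.58 to -0.86). The abundant members of the list were level, with *Ifitm3*, a barrier to virus entry, at 6230 against 6134 CPM (log2 ratio -0.02, -0.07 to 0.02), and *Ifi27l2a* at 2689 against 2368 CPM (log2 ratio -0.18, -0.25 to -0.12). The summed list took a median of 225 and 212 of every 10000 UMIs per cell.

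Promoter sequences are shown for *Rsad2*, *Isg15* and *Ifit1* because they carry the interferon-response motif in the stretch just before the start of genes on this list that differed between the libraries. The sequences are from RefSeq on GRCm38.p6, run 5′ to 3′ on the gene's strand over the 120 bases before the start, and have in capitals each match, on either strand, to GAAA followed by any 2 bases and GAAA again, with overlapping matches merged.
*Rsad2*, chr12:26456453-26456572, minus strand: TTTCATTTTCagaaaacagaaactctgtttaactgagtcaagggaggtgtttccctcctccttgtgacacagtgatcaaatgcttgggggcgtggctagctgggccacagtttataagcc
*Isg15*, chr4:156200819-156200938, minus strand: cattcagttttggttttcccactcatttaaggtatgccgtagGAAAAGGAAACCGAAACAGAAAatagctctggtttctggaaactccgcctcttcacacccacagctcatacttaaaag
*Ifit1*, chr19:34640769-34640888, plus strand: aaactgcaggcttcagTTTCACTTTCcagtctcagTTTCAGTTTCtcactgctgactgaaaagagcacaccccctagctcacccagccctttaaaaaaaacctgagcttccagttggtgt
*Rsad2* held 1 match, *Isg15* 3 overlapping matches and *Ifit1* 2. Of the 19 lower interferon genes 17 had a promoter in the table, and 9 of them (52.9%) held the motif, against 1079 of 27025 promoters (3.99%). Of the whole measured list only 41 of 52 genes were matched, too few for a full count, and 22 of these (53.7%) held the motif, a share close to that of the lower genes. Of 2417 matched genes among all those measured, 131 (5.42%) held it. A match describes these letters and does not show binding of a factor.

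Chemokines and inflammatory cytokines had the largest share of lower genes among the lists of monocyte functions. Of 23 measured genes 15 were at least 1.5-fold lower in the library labelled KO (7.43% of all genes) and 0 higher, with a median log2 ratio of -0.85. *Ccl2*, the main CCR2 ligand, stood at 3350 against 1032 CPM (log2 ratio -1.70, -1.78 to -1.62). *Cxcl2*, which attracts neutrophils, stood at 1800 against 878 CPM (log2 ratio -1.03, -1.13 to -0.94). When all cells were thinned before the rule, the log2 ratios of *Ccl2* and *Cxcl2* were -0.78 and -0.67. The chemokines *Ccl3* (log2 ratio -1.10, -1.25 to -0.94) and *Ccl4* (log2 ratio -1.28, -1.43 to -1.13) and the cytokine *Tnf* (log2 ratio -1.29, -1.74 to -0.86) were also lower. *Ccl6* (1944 against 1671 CPM, log2 ratio -0.22, -0.30 to -0.14) was within 1.5-fold, and *Il1b*, which encodes interleukin 1 beta, was higher by less than 1.5-fold (449 against 612 CPM, log2 ratio 0.45, 0.30 to 0.60). Per cell the list summed to medians of 79.3 and 66.6 of every 10000 UMIs, and the highest cell reached 1657 in the library labelled WT and 593 in the library labelled KO. Without the highest 5% of cells of each gene, the list's median log2 ratio was -0.46, and it was -0.57 when all cells were thinned before the rule, -1.09 with every member thinned and -1.50 without members holding a T, NK or B cell marker UMI. *Tnf* was at 1.18 without its highest 5% of cells and at 1.22 when all cells were thinned before the rule, so that its direction rested on few cells and on the setting, and *Ccl3* was at -0.45 without its highest 5%.

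**Figure D4:**
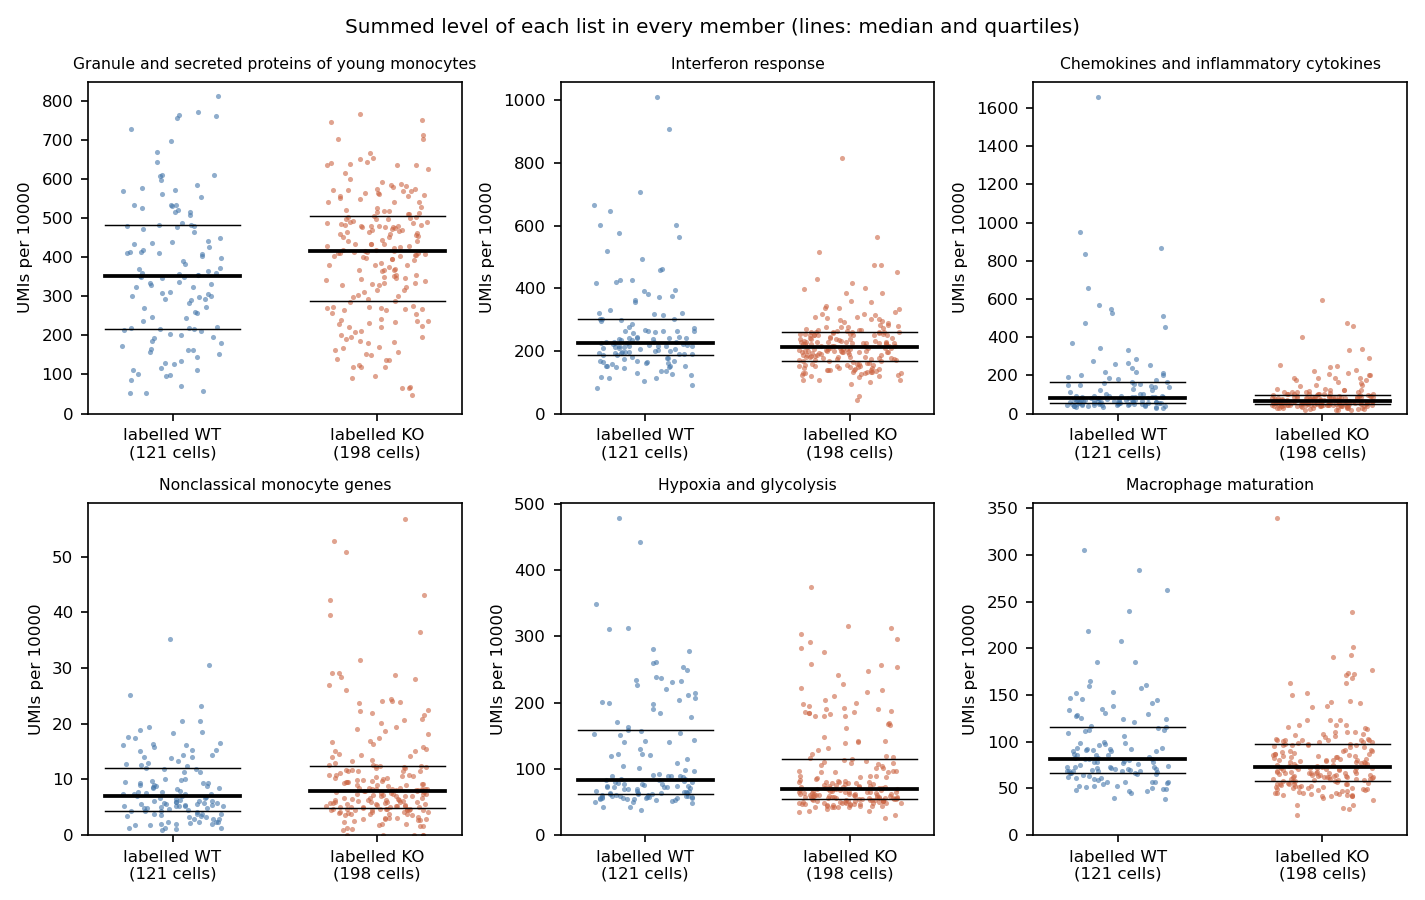
Summed level of 6 gene lists in every member, in UMIs per 10000 UMIs of the cell, for the 121 cells of the library labelled WT (blue) and the 198 cells of the library labelled KO (red), with lines at the median and quartiles. The bulk of the cells overlap for every list, and the chemokine list has a tail of WT-labelled cells up to 1657, against 593 in the library labelled KO.

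Antigen presentation genes were near level. Of 16 measured MHC class I genes (median log2 ratio 0.11) only the chaperone gene *Calr* was past 1.5-fold, at 541 against 337 CPM (log2 ratio -0.68, -0.85 to -0.52), against 7.43% of all genes lower, and *H2-D1* stood at 2658 against 2918 CPM and *B2m* at 4981 against 5044 CPM. Since the rule had an upper limit on *H2-Aa* and *H2-Ab1*, the other MHC class II genes are bounded with them. Among 10 such genes (median log2 ratio 0.19) *H2-DMa* (356 against 565 CPM, log2 ratio 0.67, 0.50 to 0.84) and *H2-DMb1* (176 against 286 CPM, log2 ratio 0.70, 0.46 to 0.94), the chains of the peptide editor H2-DM, were higher in the library labelled KO. With no limit on MHC class II these log2 ratios were 0.18 and -0.0088, and the medians of the class I and class II lists were -0.09 and -0.12. *Cd74*, the invariant chain, was within 1.5-fold at 1842 against 2275 CPM, and the lysosomal protease gene *Lgmn* was lower (log2 ratio -0.67, -0.84 to -0.51). These were 2 higher and 1 lower gene of 10, against 5.16% and 7.43% of all genes.

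Genes of macrophage maturation were lower in the library labelled KO in part. Of 20 measured genes 8 were at least 1.5-fold lower (7.43% of all genes), *Apoe* was higher and 11 were neither, and the median log2 ratio was -0.51. That median was -0.16 when all cells were thinned before the rule and -0.26 with at least 3 *Ly6c2* UMIs. *Lamp1*, a lysosomal membrane protein, stood at 878 against 437 CPM (log2 ratio -1.01, -1.15 to -0.87), but its T cell log2 ratio was also -1.15. The lysosomal proteases *Ctsd* (646 against 384 CPM, log2 ratio -0.75, -0.90 to -0.60) and *Ctsl* (476 against 165 CPM, log2 ratio -1.53, -1.74 to -1.32) were lower, as were *C3ar1*, *Dab2*, *Cd63*, *Gpnmb* and *Lgmn*, although *Cd63* (0.72) and *Gpnmb* (1.46) were on the other side of 0 when all cells were thinned before the rule. Per cell the list summed to medians of 81.6 and 72.9 of every 10000 UMIs. Among 23 genes of suppression and alternative activation, 6 were lower (7.43% of all genes) and 0 higher. They were *Hmox1*, the fatty acid carrier *Fabp5* (830 against 444 CPM, log2 ratio -0.90, -1.04 to -0.76), the NADPH oxidase subunit *Ncf4* (444 against 253 CPM, log2 ratio -0.81, -1.0 to -0.62), *Cd24a*, *Havcr2* (which encodes TIM-3) and *Cd274* (PD-L1; 63 against 25.4 CPM, log2 ratio -1.31, -1.89 to -0.75). *Tgfb1*, transforming growth factor beta 1, was within 1.5-fold at 590 against 712 CPM.

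Some metabolic genes were lower in the library labelled KO. Of 24 hypoxia and glycolysis genes 22 had a negative log2 ratio but only 4 were past 1.5-fold (7.43% of all genes were lower), with a median of -0.32 that was -0.39 in T cells. *Bnip3*, a mitophagy receptor, stood at 190 against 97.3 CPM (log2 ratio -0.96, -1.26 to -0.67), *Ero1l*, an oxidase of the endoplasmic reticulum, at 144 against 62.5 CPM (log2 ratio -1.20, -1.57 to -0.84), and lactate dehydrogenase A (*Ldha*) at 1206 against 934 CPM. Of 24 antioxidant genes 5 were lower (7.43% of all genes) and 0 higher. The largest in UMIs was *Fth1*, the ferritin heavy chain that stores iron, at 12985 against 5771 CPM (log2 ratio -1.17, -1.21 to -1.13), and it was -0.50 on the log2 scale when all cells were thinned to 3700 UMIs before the rule was applied. Of 30 cell cycle genes only 5 reached 100 UMIs, none past 1.5-fold, with a median log2 ratio of 0.12. When all cells were thinned before the rule, that median was -0.53 over 6 genes, and *Hmgb2* was past 1.5-fold at -0.63. Of 21 immediate early and heat shock genes, *Egr1* was higher (log2 ratio 0.84, 0.37 to 1.35) and *Jund* lower (log2 ratio -1.62, -1.88 to -1.37, with -1.55 in T cells), against 5.16% and 7.43% of all genes, and *Fos* (1065 against 1211 CPM) was within 1.5-fold.

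Among transcription factors of the lineage, *Id2*, an inhibitor of E proteins, was lower in the library labelled KO (838 against 269 CPM, log2 ratio -1.64, -1.80 to -1.48), as were the quiescence factor *Klf2* (275 against 124 CPM, log2 ratio -1.15, -1.41 to -0.90), *Cebpa* and *Hif1a*. *Nr4a1* and *Batf3* (log2 ratio 0.99, 0.40 to 1.64) were higher. These were 4 lower and 2 higher genes of 22, against 7.43% and 5.16% of all genes. The other 16, among them the myeloid master regulator *Spi1* (PU.1; 742 against 838 CPM) and *Irf8* (196 against 254 CPM), stayed within 1.5-fold.

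Genes of nonclassical monocytes were the 1 list in which most measured genes were higher in the library labelled KO. Of 9 measured genes 5 were at least 1.5-fold higher, against 5.16% over all genes, and 1 (*Pglyrp1*, log2 ratio -1.15, -1.49 to -0.81) was lower, with a median log2 ratio of 0.60. Besides *Cx3cr1*, *Nr4a1* and *Itgal*, they were the B cell and myeloid factor *Pou2f2* (65.6 against 117 CPM, log2 ratio 0.83, 0.45 to 1.24) and the Notch target *Hes1* (log2 ratio 0.60, 0.01 to 1.25). The defining genes *Ace*, *Treml4*, *Adgre4* and *Spn* did not reach 100 UMIs, with 8 and 63, 9 and 52, 11 and 50, and 14 and 67 UMIs in the WT-labelled and KO-labelled members. At least 2 UMIs of these 4 genes were held by 5 of 121 members (4.13%, exact binomial 95% interval 1.36 to 9.38) of the library labelled WT and 51 of 198 members (25.8%, 19.8 to 32.4) of the library labelled KO. *Spn* is also a T cell gene, so the other 3 were counted by themselves in thinned cells. A UMI of *Ace*, *Treml4* or *Adgre4* was then found in 10.8% (5.71 to 18.1) and 30.2% (23.5 to 37.5) of members and in 0.227% and 1.15% of T cells. In C1q-high cells the shares ran the other way, at 17.2% and 5.23%, and in MHC class II-high *Ly6c2* cells they were 20.8% and 24.5%, with intervals that overlapped.

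The 51 KO-labelled members with at least 2 UMIs of *Ace*, *Treml4*, *Adgre4* and *Spn* still carried the classical markers. Compared with the other 147 KO-labelled members they held *Ly6c2* at 1460 against 2160 CPM, *Chil3* at 1063 against 1783 CPM, *Hp* at 786 against 675 CPM and *Ccr2* at 549 against 637 CPM. *Cx3cr1*, at 101 against 47.6 CPM, *Nr4a1*, at 157 against 80.9 CPM, and the muscle-type enolase gene *Eno3*, at 46.1 against 3.17 CPM, were higher in them. These cells were picked after their values had been seen, so these levels are a description. Without the cells of this kind in either library, the log2 ratio was 1.31 for *Cx3cr1*, 1.08 for *Nr4a1*, 1.79 for *Apoe* and 0.97 for *Serpinb10*, while the median of the nonclassical list was 0.01 over the 6 genes left with 100 UMIs. With these cells kept but all members thinned to 6200 UMIs, which left out 10 and 19 members, that median was 0.11, also over 6 genes.

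**Figure D5:**
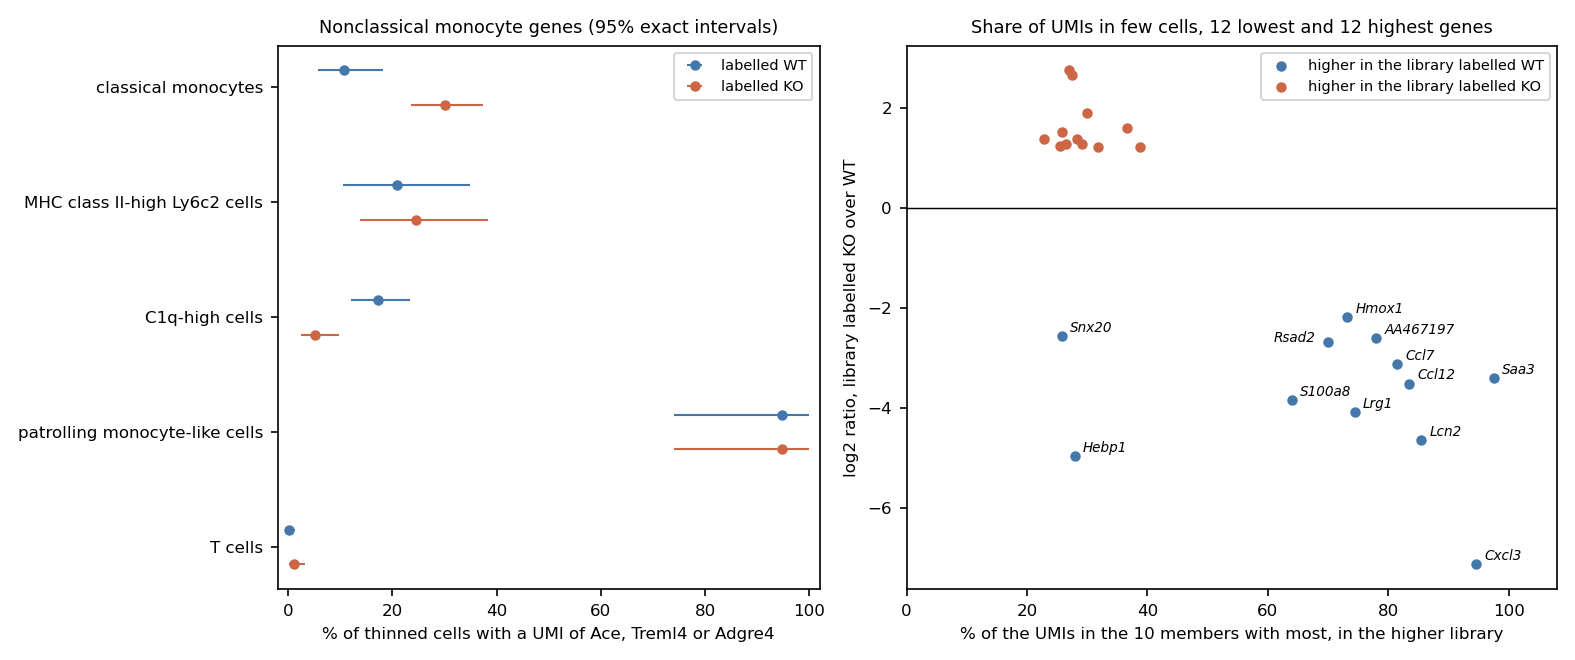
Left, the share of cells thinned to 6200 UMIs with a UMI of *Ace*, *Treml4* or *Adgre4*, by cell group and library, with exact 95% intervals; classical monocytes reached 10.8% and 30.2%, and patrolling monocyte-like cells are high because they were selected by these genes. Right, the share of a gene's UMIs held by its 10 highest members against its log2 ratio, for the 12 genes named in each direction; *Saa3* and *Cxcl3* lie far right, at 97.5% and 94.6%.

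Transcripts of other cells were counted in the members as well. The neutrophil list summed to 746 CPM in the library labelled WT and 178 CPM in the library labelled KO, and in T cells to 273 and 58.2 CPM. Of its 16 genes 13 had a UMI in the members, 4 reached 100 UMIs, 3 of these were at least 1.5-fold lower in the library labelled KO (7.43% of all genes), and the defining gene *Ly6g* had 1 UMI. At least 10 UMIs of *S100a8* and *S100a9* together were held by 12 of 121 members (9.92%) and 1 of 198 members (0.505%). Without those cells the log2 ratio of *S100a8* was -2.90 and that of *Lcn2* -3.28, and those of *Lrg1* (-3.70), *Saa3* (-3.47) and *Hebp1* (-4.81) were close to their values with all members. Without members holding a T, NK or B cell marker UMI, the log2 ratio of *Lrg1* was -0.35, within 1.5-fold, while those of *Saa3* (-4.89) and *Hebp1* (-3.85) stayed past it. T cell markers summed to 82 and 61.4 CPM, NK cell markers to 105 and 100, B cell markers to 25 and 17.1 and melanoma markers to 23.3 and 15.3 CPM, with no gene of these lists at 100 UMIs. Dendritic cell markers summed to 400 and 370 CPM, most of it from *Bst2*. *Bst2* was the only gene of that list at 100 UMIs and is also an interferon-response gene. Red cell and platelet markers summed to 169 and 44.2 CPM, with 91 and 1 UMIs of the platelet chemokine *Ppbp*. Whether free RNA or joined cells contributed to the differences between libraries was not tested.

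The members were also set against other myeloid cells of both libraries. These contrasts rest on groups that the rule itself separates and are descriptions. Counts over the lists are not given for them, since many genes reached the UMI minimum only through the group in which they were high. The leukocyte protease inhibitor *Slpi* stood at 422 CPM in the members, against 45.0 CPM in C1q-high cells and 64.0 CPM in MHC class II-high *Ly6c2* cells. The detoxifying transferase *Mgst1* stood at 406 CPM in the members, against 59.9 CPM in MHC class II-high *Ly6c2* cells.

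The members also varied along these lists within each library. Across the thinned members (111 of the library labelled WT and 179 of the library labelled KO), the summed granule list ran against the hypoxia and glycolysis list, with Spearman coefficients of -0.67 and -0.57. It also ran against macrophage maturation, at -0.57 and -0.28, and hypoxia ran with suppression genes, at 0.62 and 0.54. Interferon-response genes and chemokines were nearly unrelated, at 0.13 in either library. The cells of a library share 1 preparation and the lists are shares of 1 total, so that these coefficients describe the cells and carry no p-value.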

How the data were processed

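Single cells were sorted, captured and sequenced with the 10x 3′ V2 chemistry on a NovaSeq. Per the submitters' processing notes and the study's methods the reads were processed with Cell Ranger on mm10, the libraries were aggregated and the values were normalized in Seurat; versions are not given in the sources used here. The deposited table is described as raw counts, but its values were found to be the natural log of 1 plus UMIs scaled to 10000 per cell, as the authors' normalization writes them. UMIs were recovered from each cell's smallest nonzero value, and 100% of values in all 5022 cells came out whole within 0.01. The table holds 17232 genes. Members had 1158898 and 1695096 UMIs.

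All 319 members entered every summed count. CPM carry exact Poisson 95% intervals, shares Clopper-Pearson intervals, and log2 ratios (0.5 UMI added to each count) conditional binomial intervals. Thinning drew 6200 UMIs per cell without replacement and left out 10 and 19 members with fewer. Doublets were not called; the limits of the rule and an alternative without members holding a T, NK or B cell marker UMI stand in. Named were the markers, the rule's genes, the 12 most different genes each way by log2 ratio, of those reaching 100 UMIs with separate intervals, and, from each list, the genes with the most UMIs and those past 1.5-fold. A further limit of the rule and results on some genes are not reported here. Other genes were named after their values were seen. Members and lists were chosen with earlier results of these data known. Gene positions are from GENCODE M21. Scripts were tested on simulated data, with Python 3.11.15, numpy 2.4.6, scipy 1.17.1, pandas 2.3.3 and matplotlib 3.10.9. Alternatives were other limits of the rule, filters, scalings and thinnings.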

Additional observations from a re-analysis of the deposited data

Results flagged for a closer look

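For 10 gene and group pairs, the log2 ratio of the library labelled KO over the library labelled WT was past 1.5-fold in another cell group with at least 100 UMIs, and past 1.5-fold on the opposite side in classical monocytes, with intervals that left out 0 in both. The differences were not tested, since each genotype had 1 library. In MHC class II-high *Ly6c2* cells, *Thbs1* was 0.59 (0.09 to 1.12), against -1.31 in the classical monocytes, *Fabp5* was 1.02 (0.77 to 1.27), against -0.90, and *Gpnmb* was 2.15 (1.47 to 2.96), against -1.57. *Gpnmb* was also 0.72 (0.46 to 0.97) in a further myeloid group. In C1q-high cells, *Itgal* was -0.67 (-1.23 to -0.13), against 0.87, and *Pf4*, which encodes platelet factor 4, was 0.81 (0.73 to 0.89), against -1.56. Without the highest 5% of cells of each library, the *Pf4* ratio in the classical monocytes was -0.31, within 1.5-fold. The *Pf4* pair thus rests on few cells. When all cells were thinned before the rule, the classical monocyte ratio was 1.46 for *Gpnmb*, -0.52 for *Fabp5* and 0.31 for *Itgal*. The pairs of these 3 genes therefore depend on the setting. *Cxcl10*, which attracts T cells through CXCR3, was 1.82 (1.23 to 2.49) in patrolling monocyte-like cells and 0.60 (0.19 to 1.02) in T cells, against -0.72 in the classical monocytes. *Cx3cr1* was -1.32 (-1.74 to -0.94) in T cells, against 1.60. *Ccl3* was 0.78 (0.47 to 1.10) in NK cells, against -1.10 in the classical monocytes, or -0.45 without its highest 5% of cells.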

How the results depend on the processing

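With 1 library per genotype no spread between mice is known, and no paired analysis was possible because each genotype has 1 library. The share of classical monocytes in the libraries labelled WT and KO was 6.27% and 9.09% with at least 3 *Ly6c2* UMIs, 3.55% and 4.68% with at least 10, 4.01% and 5.99% when all cells were first thinned to 3700 UMIs, and 7.11% and 9.66% with no MHC class II limit. Without members holding a T, NK or B cell marker UMI it was 0.878% and 2.24%, with 21 and 59 cells left. In a setting chosen after seeing the data, it was 4.85% and 5.59% without members holding at least 2 UMIs of *Ace*, *Treml4*, *Adgre4* and *Spn*. It was higher in the library labelled KO in each of these settings, but the 95% intervals overlapped with at least 10 *Ly6c2* UMIs (2.85 to 4.38 against 3.90 to 5.55) and without the members holding *Ace*, *Treml4*, *Adgre4* and *Spn* (4.02 to 5.79 against 4.74 to 6.54).

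The counts of 161 higher and 232 lower genes became 105 higher with at least 10 *Ly6c2* UMIs, 93 higher after thinning all cells before the rule, 104 higher with every member thinned, 61 and 109 of 913 genes without members holding a T, NK or B cell marker UMI, 374 and 419 at a minimum of 50 UMIs, 74 and 128 at 200 UMIs, and 24 and 83 at 2-fold. Leaving out the highest 5% of cells of each gene, also chosen after seeing the data, gave 273 higher. With the median log2 ratio set to 0 they were 151 and 239. Of 146 genes recomputed, 80 were past 1.5-fold, between 60 and 80 of these stayed past it, and all kept their direction under each setting except the following. *H2-DMb1* was -0.0088 with no MHC class II limit, and *Cyp51* and *Mmp8* were -0.33 and 0.76 without members holding a T, NK or B cell marker UMI. *Tnf* (1.22), *Cd63* (0.72) and *Gpnmb* (1.46) reversed when all cells were thinned before the rule, *Cd63* (0.67) with at least 10 *Ly6c2* UMIs, and *Tnf* also without the highest 5% of cells (1.18) and under a further setting of the rule (0.26), both chosen after seeing the data. Within 1.5-fold under at least 1 setting were *Batf3*, *Bnip3*, *Calr*, *Ccl3*, *Cd177*, *Cd24a*, *Cd63*, *Clec4d*, *Clec4e*, *Clec4n*, *Ctsd*, *Cxcl10*, *Cyp51*, *Dab2*, *Egr1*, *Ero1l*, *F13a1*, *Fabp5*, *Fcgr4*, *Fth1*, *Gpnmb*, *H2-DMa*, *H2-DMb1*, *Hes1*, *Hif1a*, *Irf7*, *Itgal*, *Klf2*, *Lgmn*, *Lrg1*, *Mmp8*, *Msr1*, *Pf4*, *Pou2f2*, *Tnf*, *Trem1* and *Vcan*. The cause was not tested. A gene with 0 UMIs allows up to 3 UMIs in a library.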

Other observations

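The lists held further genes with few UMIs, given here as values. *Il1r2*, the decoy receptor for interleukin 1, had 54 and 28 UMIs in the members of the libraries labelled WT and KO. Of the dendritic cell genes, *Flt3* had 2 and 16 UMIs and *Clec10a* 18 and 37, while *Xcr1* had none in either library. *Cd36*, a scavenger receptor of lipids, had 46 and 26 UMIs.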
